A study of Serinus canaria and Ploceus bicolor and Uraeginthus cyanocephalus with 155 samples.

Results

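HVC is a forebrain nucleus of songbirds that sits at the top of the descending motor pathway for song, and it is larger in the males of many species. Its neurons carry receptors for androgens and oestrogens, and testosterone given to adult female canaries is known to start song and to enlarge HVC. Male birds carry a pair of Z chromosomes and females a Z and a W, so some transcripts differ between the sexes in every tissue, whereas others differ only under a certain hormonal or seasonal state. The transcripts described here were those whose HVC level differed clearly between males and females without testosterone and hardly at all between males and females that carried a testosterone implant.

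A transcript was a member when the mean male log2 level minus the mean female log2 level was at least 0.5 in size in HVC of non-breeding, non-singing canaries and under 0.1 in size in HVC of testosterone-implanted canaries. Of 26061 transcripts, 533 met the first condition, 9457 met the second and 64 met both, which was 0.246% of all. Of the 64 members, 47 were higher in males without testosterone (male-biased) and 17 were higher in females (female-biased). Among the 533 transcripts with a bias of at least 0.5 without testosterone, members made up 12.0%, and 118 transcripts (22.1%) kept a bias of at least 0.5 in the same direction in implanted birds. The remaining 351 lay in between or had reversed, 11 of them by 0.5 or more. The members were selected on the measured levels of 4 groups of arrays, so all values of those 4 groups are given as a description.

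Transcript levels had been measured on a custom exon array with zebra finch probes, 1 array for 1 brain region of 1 bird. The 4 selecting groups were adult non-breeding, non-singing canaries (Serinus canaria) kept on short days, male and female, and short-day non-breeding canaries, male and female, that had received a subcutaneous testosterone implant and sang, with 6 birds in each. The birds used for comparison carried no implant, and the implanted birds differed from them in singing as well as in hormone. Testosterone, singing and the implant procedure therefore cannot be told apart. The same 4 states were measured in the entopallium, a visual area of the forebrain outside the song system, with 6 birds in each group and 5 in that of the non-singing, non-implanted females. Further canary groups were long-day breeding males, which sang, and long-day breeding females, which did not, in HVC and entopallium, and short-day females that sang spontaneously without an implant. Cerebellum was measured in breeding and in non-breeding, non-singing canaries of both sexes. From 2 further songbirds, the cordon-bleu (Uraeginthus cyanocephalus) and the forest weaver (Ploceus bicolor), HVC arrays of breeding, singing birds of each sex were used. All of these groups held 6 birds.

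The transcripts were known only by the identifiers of the array, which were zebra finch, chicken or mammalian transcript models, RefSeq RNAs or cDNAs. None of them could be paired with a gene name in the reference used here, so no gene function, chromosome or sequence is given, and HVC could not be checked against its marker genes. Among the members were 20 zebra finch Ensembl models (31.2% of members and 45.8% of all transcripts), 28 predicted RefSeq mRNAs (43.8% and 40.2%) and 5 cDNAs with an AK number (7.81% and 3.42%). In dissected tissue, fewer cells of a type and less RNA per cell cannot be told apart.

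Array medians ranged from 7.13 to 7.45 on the log2 scale, and no arrays of a group were identical. One array of the selecting groups stood apart, that of implanted male replicate 1, with a mean correlation of 0.972 to the other implanted males, against 0.985 to 0.988 for the other 5. This male was the highest or the lowest of the 6 implanted males in 71.7% of all transcripts and in 43.8% of the members. The selection used the level of this male, so the share in members depends on how they were chosen. Without this male, 42 of the 64 members still differed by less than 0.1 between implanted males and females. In its absence 22 differed by 0.1 or more and none by 0.5, the range being -0.33 to 0.38.

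Without testosterone the male-biased members were higher in males by 0.51 to 1.44 log2 units (median 0.58), with 6 of them at 1 or more. The female-biased members were higher in females by 0.50 to 0.90 log2 units, with a median male minus female difference of -0.57. In implanted birds the same differences ran from -0.09 to 0.10 in the male-biased and from -0.08 to 0.08 in the female-biased members. The median male minus female difference of all transcripts was 0.00 without testosterone and 0.04 with it. At the first limit, XM_002200020 lay just inside at -0.501 and ENSTGUT00000008129 just outside at -0.4998. At the second limit, XM_002186601 lay just inside at 0.0976 and XM_002187806 just outside at -0.101.

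**Figure D1:**
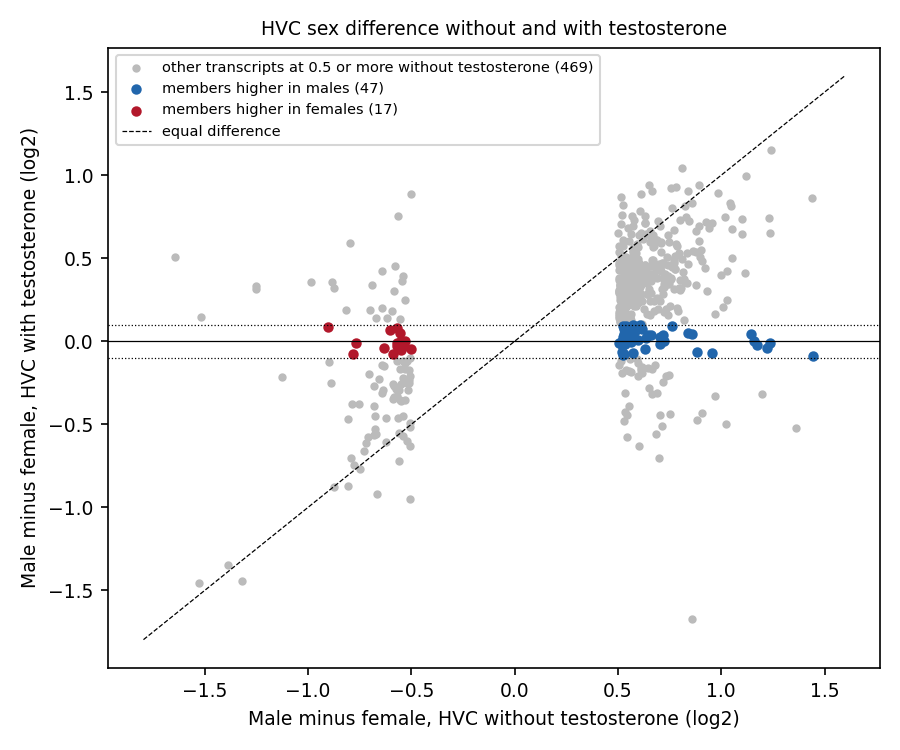
Male minus female difference of mean log2 level in HVC without testosterone (x axis) and with testosterone (y axis) for the 533 transcripts with a difference of at least 0.5 without it. The 47 male-biased and 17 female-biased members lie between the dotted lines at -0.1 and 0.1. Of the other 469 transcripts (grey), 118 kept a difference of at least 0.5 in the same direction. The remaining 351 lay in between or had reversed. The dashed line marks an equal difference.

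Because the limits were set on means, the members were not equally well measured. Tested with limma over all transcripts (called at a Benjamini-Hochberg adjusted p under 0.05 and a difference of at least 0.5), 41 male-biased and 11 female-biased members were called without testosterone, where 1.42% of all transcripts were called higher in males and 0.276% higher in females. The values of the 2 sexes did not overlap in 34 of the 64 members, with every male above every female in 27 of 47 male-biased members (3.96% of all transcripts) and every female above every male in 7 of 17 female-biased members (2.19%). None was called with testosterone, where 0.821% of all transcripts were called higher in males and 0.622% higher in females. These counts follow from the selection. Among the members named in the text, XM_002187191, XM_002190061, XM_002194060, XM_002198076, XM_002200020 and XR_054409 were not called without testosterone. In 51 members the 95% interval of the difference with testosterone lay within -0.5 and 0.5, and in 13 members it reached 0.5. For these 13 a bias as large as that used to select them was not measured to be absent. The selection on the same arrays held the centre of every interval under 0.1 in size, so the intervals of the 51 carry no test of absence. The median standard error with testosterone was 0.141 for the members and 0.0864 for all transcripts.

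Many members lay low on the array scale. Of the 64, 23 (35.9%) lay in the lowest 25% of transcripts by mean level, at or below 6.08 on the log2 scale. Their median standard error with testosterone was 0.220, against 0.119 for the other 41 members, and 14 of the 23 were called without testosterone, against 38 of the 41.

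The largest difference without testosterone belonged to one of these low transcripts, XM_002190406, a predicted mRNA. Its level ranged from 3.45 to 4.66 in the 6 non-breeding males (median 3.89) and from 1.86 to 3.09 in the 6 non-breeding females (median 2.58). With testosterone it ranged from 1.68 to 4.57 in males (median 2.79) and from 1.86 to 4.67 in females (median 3.18). The sexes were apart without testosterone, and with it both sexes covered the whole range. The non-breeding females lay near the bottom of the array scale, the first percentile of their arrays being 2.65 to 2.82. The difference without testosterone was 1.44 ± 0.23 (SE), and with testosterone it was -0.09 with a 95% interval of -1.25 to 1.08. Implanted male replicate 1 was the lowest of the males, at 1.68, and without it the difference with testosterone was 0.18, above the limit of 0.1.

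The second largest, the chicken transcript model ENSGALT00000024641, was measured far more tightly. It ranged from 5.98 to 6.30 in non-breeding males (median 6.11) and from 4.79 to 5.03 in non-breeding females (median 4.88). In implanted males it ranged from 4.90 to 5.29 (median 5.17) and in implanted females from 4.73 to 5.91 (median 4.96). Of these groups the non-breeding males stood clear, since every implanted male lay below every one of them. Breeding males, which carried no implant, were also low in HVC, with a mean of 4.92. The difference between the sexes was 1.24 ± 0.06 (SE) without testosterone, a 2.36-fold difference, and -0.01 with it (95% interval -0.40 to 0.39). Leaving out implanted male replicate 1 left the latter at -0.01. The implanted females were less even, with birds 1 and 4 at 5.91 and 5.63 and birds 5, 6 and 8 at 4.73 to 4.82. Their mean, and so the small difference with testosterone, rested in part on birds 1 and 4. The difference without either bird is not given here.

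Of the female-biased members, XM_002193573 had the largest difference, -0.90 ± 0.18 (SE). It ranged from 2.50 to 3.27 in non-breeding males (median 2.85), from 3.53 to 4.51 in non-breeding females (median 3.61), from 3.08 to 3.67 in implanted males (median 3.38) and from 2.79 to 4.02 in implanted females (median 3.36). The non-breeding males lay near the bottom of the array scale, the first percentile of their arrays being 2.71 to 2.89. Males and females did not overlap without testosterone, and with it the males lay inside the range of the females. The opossum transcript model ENSMODT00000000060 differed by -0.78 ± 0.17 (SE). It ranged from 5.60 to 5.99 in non-breeding males (median 5.82), from 6.01 to 7.24 in non-breeding females (median 6.44), from 5.69 to 6.10 in implanted males (median 5.90) and from 5.48 to 6.39 in implanted females (median 5.93). Here the non-breeding females had the highest median and overlapped both implanted groups.

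**Figure D2:**
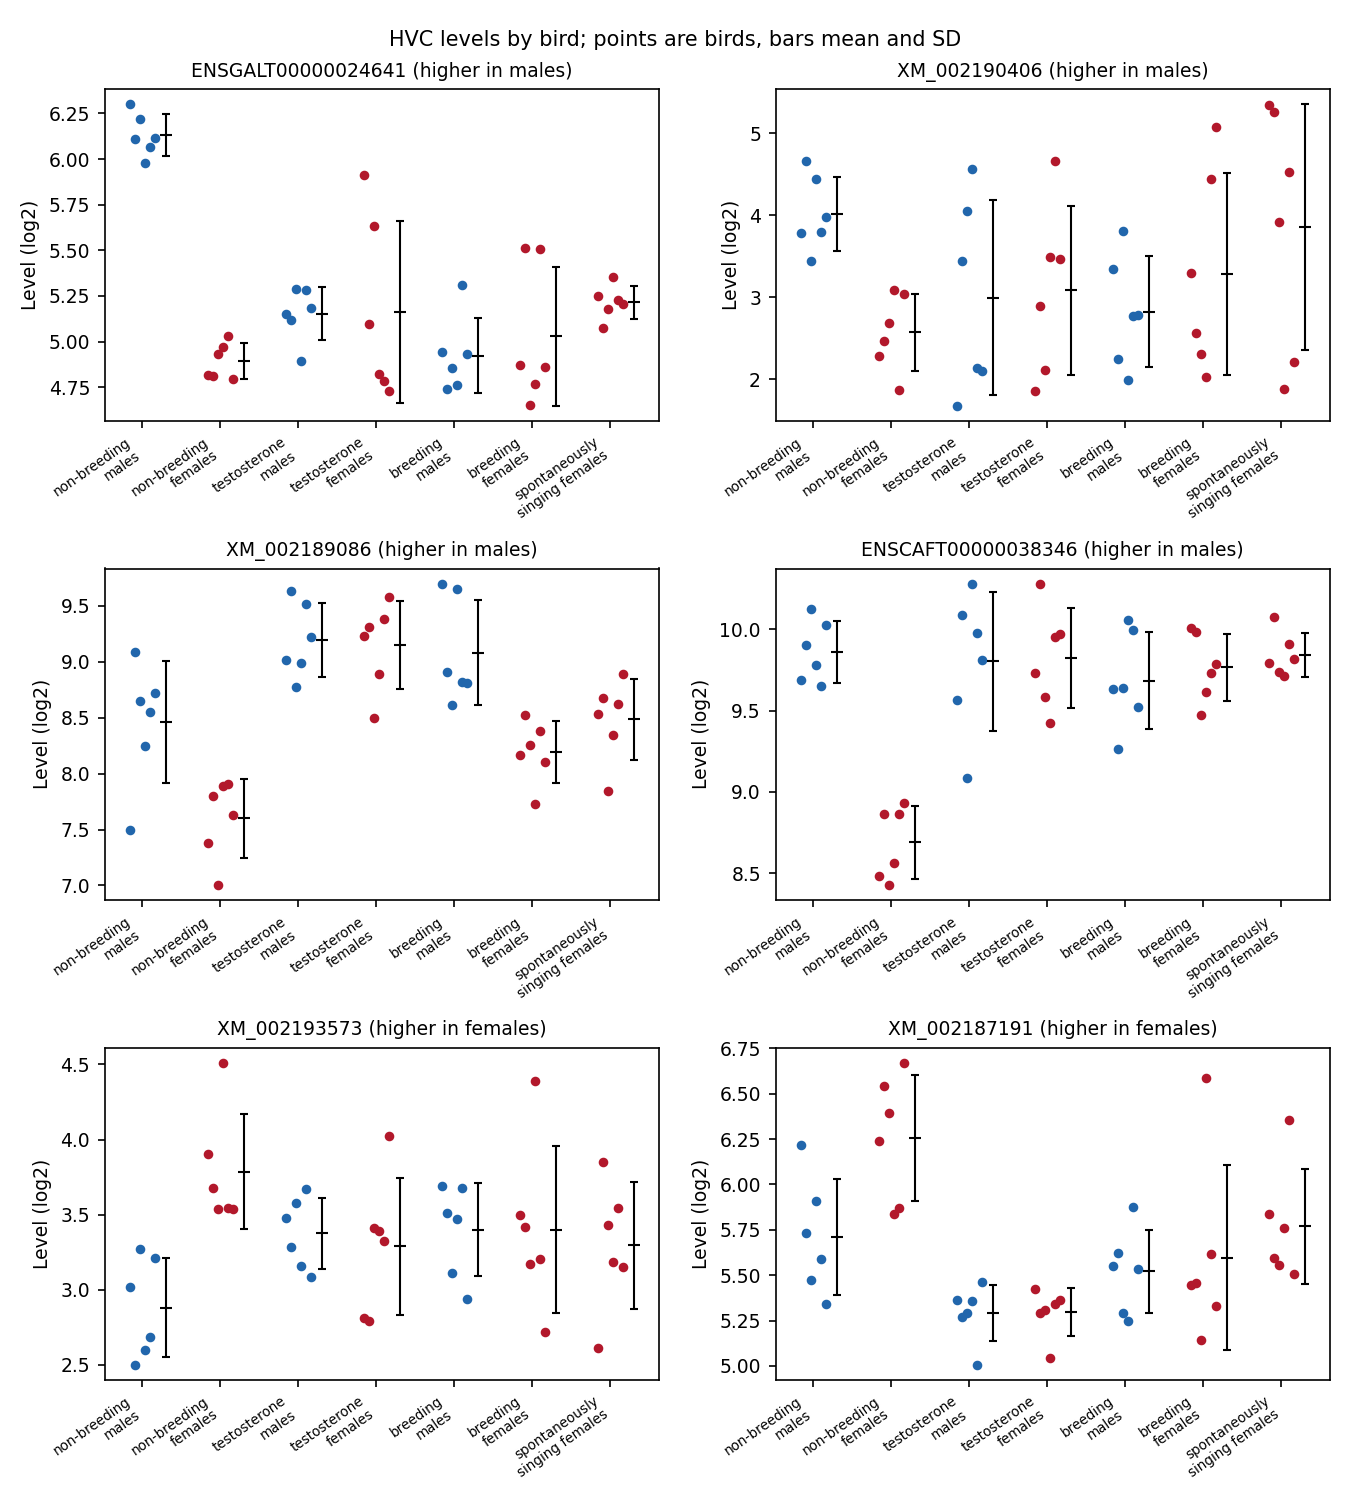
HVC levels (log2, y axis) of 4 male-biased and 2 female-biased members in each of the 7 canary HVC groups (x axis). Each point is 1 bird (blue male, red female), and the bar beside each group gives the mean and SD of 6 birds. In ENSGALT00000024641 the non-breeding males lie apart, in ENSCAFT00000038346 the non-breeding females do, and XM_002190406 covers a wide range in most groups.

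The selection fixed that the sexes came together under testosterone but not which sex had the different level. In the male-biased members the median difference between implanted and non-implanted birds was -0.28 in males and 0.35 in females, and in the female-biased members it was 0.13 in males and -0.42 in females. Over all transcripts the medians were 0.02 in males and -0.02 in females. The larger difference was that of the females in 37 of the 64 members, 26 of 47 male-biased and 11 of 17 female-biased. It was that of the males in the other 27. This share was not computed over all transcripts, so it is not read as a trait of the members. In 36 of 47 male-biased members the males were lower and the females higher with testosterone. In 11 of 17 female-biased members the males were higher and the females lower. In 7 male-biased members both sexes were higher with testosterone and in 4 both were lower, and in the female-biased members the same counts were 1 and 5.

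In 10 male-biased members the implanted females were higher by at least 0.5 while the males differed by less than 0.25, and in 7 the implanted males were lower by at least 0.5 while the females differed by less than 0.25. The same counts in the female-biased members were 6 for a lower level in implanted females and 2 for a higher level in implanted males. In 24 male-biased and 8 female-biased members neither sex differed by 0.5, and the loss of bias was the sum of smaller differences in the 2 sexes. In the limma fit on these arrays, 11 members were called higher and 6 lower in implanted females (0.883% and 0.265% of all transcripts), and 2 were called higher and 4 lower in implanted males (0.695% and 0.491%). The interaction of sex and testosterone in HVC was called in 26 members, positive in 7 and negative in 19, where 0.760% of all transcripts were called positive and 1.27% negative. The selection used the same arrays, so these counts carry no test of the members. Without implanted male replicate 1 they were again 6 in males and 26 for the interaction.

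**Figure D3:**
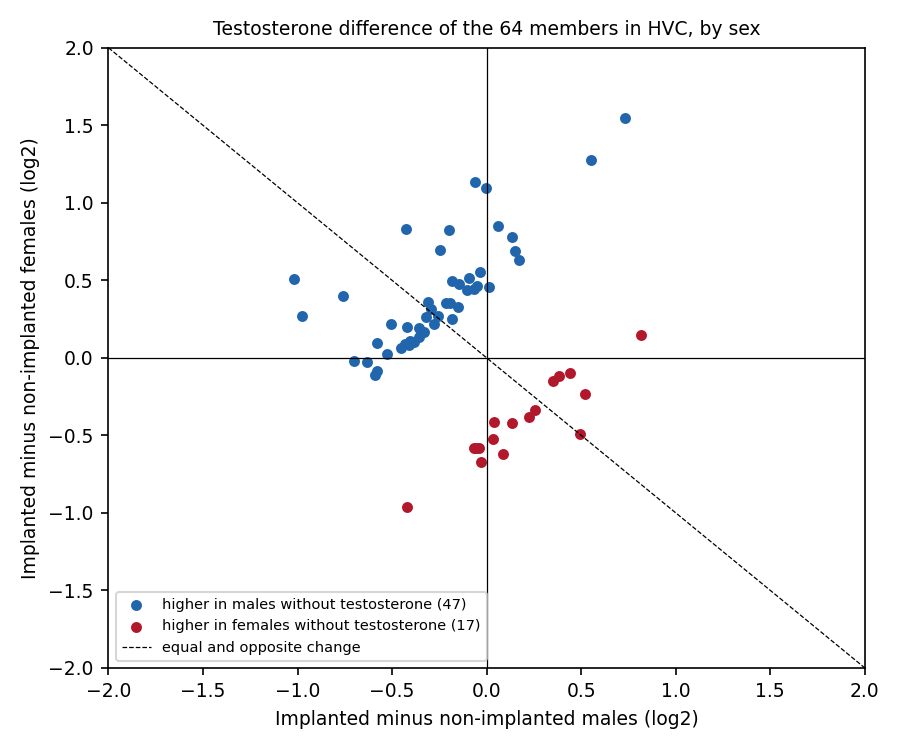
Implanted minus non-implanted mean level in HVC (log2) of the 64 members, males on the x axis and females on the y axis. Most male-biased members (blue) lie upper left and most female-biased members (red) lower right. The dashed line marks an equal and opposite difference in the sexes. Points whose value is larger in size on the y axis than on the x axis have the larger difference in females.

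In the male-biased members the males differed most in XM_002190406, by -1.02 (adjusted p = 0.164), and the females differed most in XM_002189086, by 1.55. XM_002189086 ranged from 7.50 to 9.09 in non-breeding males (median 8.60), from 7.0 to 7.90 in non-breeding females (median 7.72), from 8.77 to 9.63 in implanted males (median 9.12) and from 8.50 to 9.58 in implanted females (median 9.27). Every implanted female lay above every non-breeding, non-singing female. The males were also higher with the implant, by 0.73, with overlapping ranges. The bias was thus lost at a level above that of either non-breeding, non-singing group.

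In the female-biased members the males differed most in the zebra finch model ENSTGUT00000017609, which lay near the bottom of the array scale. It ranged from 1.68 to 2.38 in non-breeding males (median 1.97) and from 2.37 to 3.69 in implanted males (median 2.70), a difference of 0.82, and from 2.01 to 3.23 in non-breeding females (median 2.56) and from 1.85 to 3.05 in implanted females (median 3.02). The females differed most in XM_002187191, by -0.96. It ranged from 5.34 to 6.22 in non-breeding males (median 5.66), from 5.83 to 6.67 in non-breeding females (median 6.32), from 5.01 to 5.46 in implanted males (median 5.33) and from 5.04 to 5.43 in implanted females (median 5.33). Implanted birds of both sexes lay close together, below every non-breeding female.

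Members were looked at in pairs for levels that varied together from bird to bird. No count was made for pairs of other transcripts, so the figures are not read as a trait of the members. After group means were removed, 4 of 2016 pairs of members had a correlation of at least 0.8 over the canary HVC arrays, and the median over all pairs was 0.02. These pairs were chosen after their values were seen, and the 42 arrays share their normalisation. Of the 4 pairs, 3 joined ENSCAFT00000038346, ENSTGUT00000011481 and XR_053899, and whether these are separate genes was not tested. ENSCAFT00000038346 ranged from 9.65 to 10.13 in non-breeding males (median 9.84), from 8.43 to 8.93 in non-breeding females (median 8.71), from 9.09 to 10.28 in implanted males (median 9.90) and from 9.43 to 10.28 in implanted females (median 9.84). It was a case in which the non-breeding females alone were low. In breeding females it ranged from 9.48 to 10.01 (median 9.76) and in spontaneously singing females from 9.72 to 10.08 (median 9.81), so none of the females of the other groups overlapped the non-breeding, non-singing ones.

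Seen against the non-breeding, non-singing females, the male-biased members were higher by a median of 0.58 in non-breeding males, 0.35 in implanted females, 0.35 in implanted males, 0.31 in breeding females, 0.51 in breeding males and 0.49 in spontaneously singing females. The female-biased members differed by -0.57, -0.42, -0.42, -0.28, -0.43 and -0.43 in the same order. The arrays of the non-breeding females enter all of these medians, which the selection placed at the low or high end.

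HVC arrays of breeding canaries, which the selection had not used, were then compared between the sexes. Of the 64 members, 5 were called higher in males (7.81%, against 2.10% of all transcripts) and 4 higher in females (6.25%, against 1.23%). Of these 9, 5 male-biased and 3 female-biased members had the direction seen without testosterone. The median difference of the male-biased members was 0.11, that of the female-biased members -0.08 and that of all transcripts 0.01. Of those called higher in males, XM_002187138, a predicted mRNA biased by 1.16 without testosterone, had the largest difference, 1.02 ± 0.28 (SE, adjusted p = 0.0168). It ranged from 6.38 to 7.92 in breeding males (median 7.75) and from 5.92 to 7.09 in breeding females (median 6.56), and 1 male, replicate 3 at 6.38, lay within the females while the others were at 7.61 or above. The zebra finch model ENSTGUT00000000826, male-biased without testosterone, went the other way, by -0.91 ± 0.12 (SE, adjusted p = 0.000206). It ranged from 4.50 to 4.96 in breeding males (median 4.65) and from 5.27 to 6.07 in breeding females (median 5.54), with no overlap.

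Breeding males were also set against the spontaneously singing females, a comparison that shares the arrays of the breeding males with the one above and in which both sides sang. The males were long-day breeding birds and the females short-day non-breeding birds, so sex and season cannot be told apart in it. Here 4 members were called higher in males (2.47% of all transcripts) and 3 higher in females (5.07%), so the share of members called higher in females, 4.69%, was close to that of all transcripts. The median of all transcripts was -0.10, that of the male-biased members -0.03 and that of the female-biased members -0.13. Of the 4, XM_002196471 differed most, by 0.88 ± 0.21 (SE, adjusted p = 0.00518), with 6.31 to 6.91 in breeding males (median 6.73) and 4.93 to 6.48 in spontaneously singing females (median 5.79). Of the 3 called higher in females, XR_054409 differed most, by -1.01 ± 0.30 (SE, adjusted p = 0.0163), with 2.61 to 4.45 in males (median 3.63) and 3.92 to 4.87 in females (median 4.65). All 3 members called higher in females were male-biased without testosterone, although XR_054409 was not called there. The HVC arrays of the spontaneously singing females had a higher low end than the other HVC arrays of canaries, with a first percentile of 3.18 to 3.37 against at most 2.95, and the part of this in the low transcripts was not tested. With quantile normalisation 3 members were called in this comparison in place of 7.

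HVC was also compared between the sexes in the other species. In cordon-bleus 4 members, all male-biased, were called higher in males (6.25%, against 1.04% of all transcripts) and none higher in females (0.0614% of all). The largest was the cDNA AK010171, with 7.97 to 8.21 in males (median 8.09) and 7.01 to 7.66 in females (median 7.14), a difference of 0.86 ± 0.10 (SE, adjusted p = 0.000121) without overlap. The median of the male-biased members was 0.12 and that of all transcripts 0.02. In forest weavers limma called no member and 0% of all transcripts in either direction. The absence of called members there is therefore no result about the members. At an unadjusted p under 0.05, 7 members and 5.55% of all transcripts passed there.

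Entopallium arrays of the same hormonal states gave the selecting comparison in a second brain region. Going by the labels, their birds were not all other birds. The bird numbers of 6 of 6 non-breeding males, 5 of 5 non-breeding females, 6 of 6 implanted males and 5 of 6 implanted females occurred in HVC too. Without testosterone, 7 members, all male-biased, were called higher in males (10.9%, against 0.472% of all transcripts) and none higher in females (0.0806% of all). The count rested on single arrays, being 4 without any one of non-breeding males replicate 1, 2, 5 or 6 or of non-breeding females replicate 1, 2, 3 or 4. With the replicate number as a block it was 1. Same-numbered arrays did not vary together here (correlations of -0.07 to 0.11), so that count is not read as a check of the calls. The median of the male-biased members was 0.06, that of the female-biased members 0.03 and that of all transcripts 0.03.

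ENSGALT00000024641 had the largest of these differences, 1.09 ± 0.08 (SE, adjusted p = 6.13e-05), and was the one member called under the block. In entopallium it ranged from 5.67 to 6.12 in non-breeding males (median 5.84) and from 4.64 to 4.87 in non-breeding females (median 4.79), with no overlap, as in HVC. In implanted males it ranged from 4.92 to 5.24 (median 5.05), below every non-breeding male without an implant. Implanted females ranged from 4.50 to 5.26 (median 4.72). Breeding males, which carried no implant, had an entopallium mean of 4.98. Among short-day males testosterone went with a lower level, by -0.79 ± 0.08 (SE, adjusted p = 0.000147), while the females differed by 0.05 (adjusted p = 0.775). The sex difference with testosterone was 0.24 (95% interval -0.02 to 0.50, adjusted p = 0.136), and the interaction of sex and testosterone was -0.85 ± 0.15 (SE, adjusted p = 0.000541). Each of these 3 calls was kept when any one bird was left out and was lost when the lowest 25% of transcripts was removed, which took this transcript out. It was the one of the 7 members for which the interaction was called against the bias, and none of the 7 was called in implanted birds in the direction of the bias.

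With testosterone, 8 members were called higher in entopallium of males (12.5%, against 2.92% of all transcripts) and 7 higher in that of females (10.9%, against 3.37%). The male-biased members split evenly, 6 in each direction, and the female-biased members were called higher in males in 2 cases and in females in 1. XM_002194060 was higher in males by 1.70 ± 0.28 (SE, adjusted p = 0.00039), with 5.89 to 6.85 in implanted males (median 6.34) and 3.48 to 5.56 in implanted females (median 4.73). The cDNA AK160441 was higher in females by 1.51 log2 units, its male minus female difference being -1.51 ± 0.15 (SE, adjusted p = 1.22e-05), with 6.34 to 7.0 in males (median 6.71) and 7.85 to 8.74 in females (median 8.10). Neither pair of groups overlapped. Both transcripts were male-biased in HVC without testosterone and within 0.1 in HVC with it. For XM_002194060 the latter rested on implanted male replicate 1, which had an HVC level of 7.79 against 4.23 to 6.53 in the other 5, and without which the HVC difference with testosterone was -0.33.

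The interaction in entopallium was called in 17 members, 5 positive (7.81%, against 2.70% of all transcripts) and 12 negative (18.8%, against 3.09%). A negative value in a male-biased member is the direction seen in HVC, and this held for 10 male-biased members, while 5 male-biased members had a positive value and 2 female-biased members a negative one. The 10 therefore ran with the HVC direction and the other 7 against it. Of the 10, only ENSGALT00000024641 had been called higher in males in entopallium without testosterone. Others, AK160441 and NM_204918 among them, were called higher in females than in males with testosterone. The direction of the interaction alone thus does not show that a male bias was lost in entopallium. The largest of those called in each direction were XM_002194060 at 1.67 ± 0.58 (SE, adjusted p = 0.0411) and AK160441 at -1.77 ± 0.21 (SE, adjusted p = 9.4e-06). The call for XM_002194060 was kept in 9 of 23 fits that left out 1 bird, and that for AK160441 in 23 of 23. The median interaction was -0.17 in the male-biased members, -0.02 in the female-biased members and -0.04 over all transcripts.

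**Figure D4:**
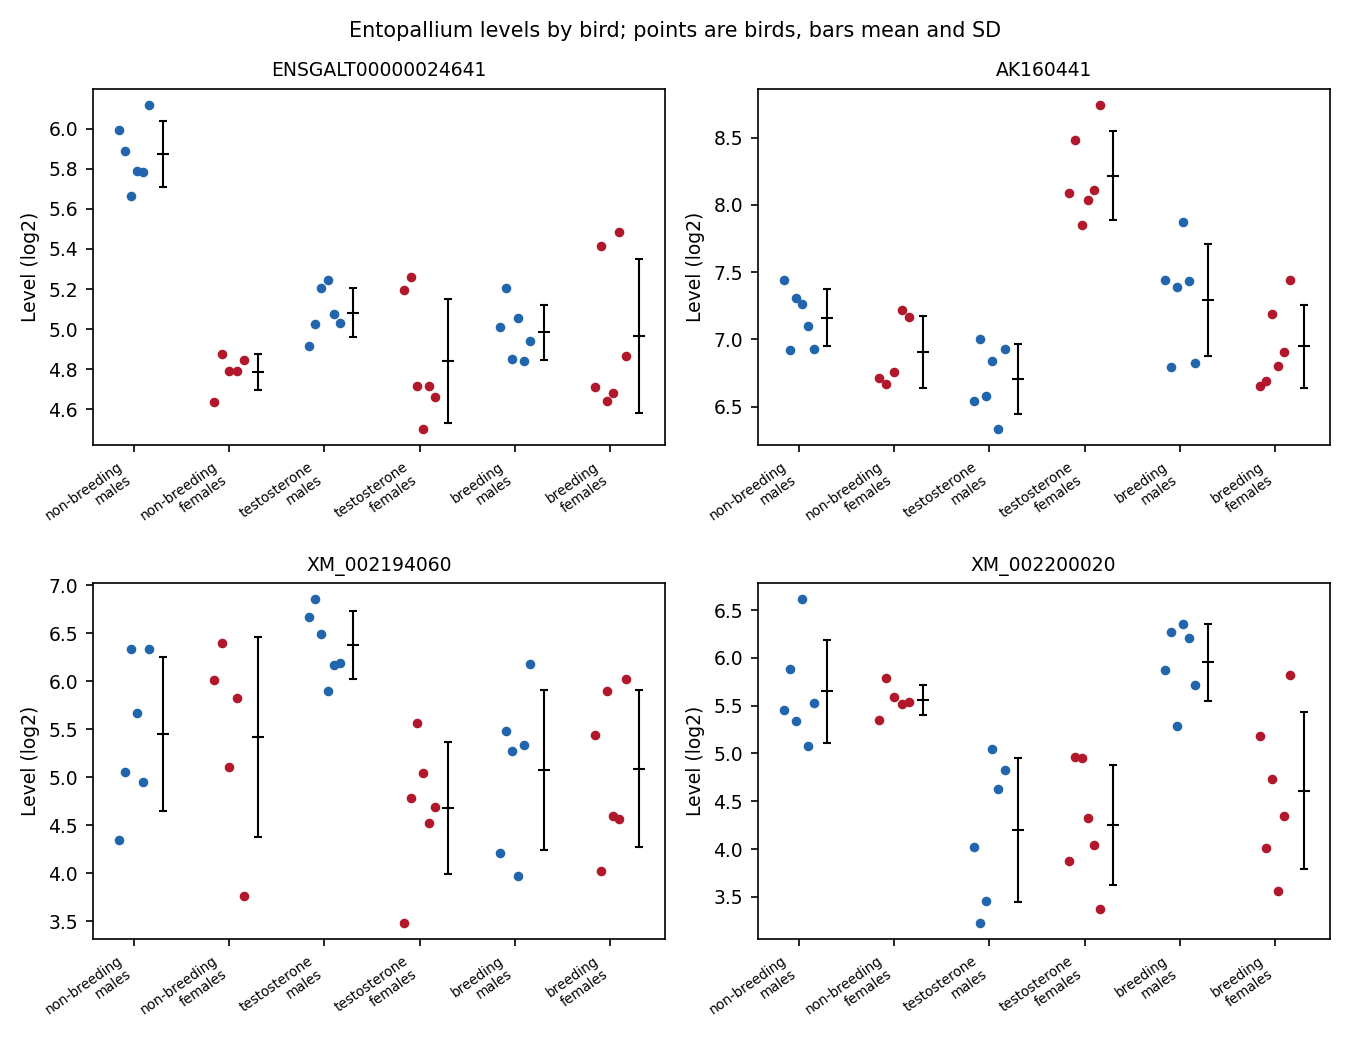
Entopallium levels (log2, y axis) of 4 members in 6 canary groups (x axis), 1 point for 1 bird (blue male, red female), with the mean and SD of 6 birds beside each group (5 for non-breeding females). ENSGALT00000024641 is high in non-breeding males alone and AK160441 is high in implanted females alone. XM_002200020 is low in implanted birds of both sexes and in breeding females.

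Implanted and non-implanted birds, which were different birds, were then compared within each sex in entopallium. In males 1 member was called higher (0.426% of all transcripts) and 2 lower (1.06%) with the implant, shares of 1.56% and 3.12% of the members. XM_002190061 was higher by 0.50 ± 0.15 (SE, adjusted p = 0.032), with 5.83 to 6.85 in non-breeding males (median 6.0) and 6.38 to 6.89 in implanted males (median 6.57), and its call was kept in 4 of 12 fits that left out 1 bird and was lost with total intensity scaling. The female-biased XM_002200020 was lower by 1.45 log2 units, at -1.45 ± 0.33 (SE, adjusted p = 0.00991), with 5.08 to 6.61 in non-breeding males (median 5.49) and 3.23 to 5.05 in implanted males (median 4.32). Without overlap it was also lower in implanted females (3.37 to 4.96, median 4.19) than in non-breeding females (5.35 to 5.79, median 5.54), by -1.30 ± 0.25 (SE, adjusted p = 0.00215).

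In females 11 members were called higher (17.2%, against 2.97% of all transcripts) and 9 lower (14.1%, against 2.94%) with the implant. Of the male-biased members 10 were called higher and 5 lower, and of the female-biased members 1 was called higher and 4 lower. AK160441 was higher by the most, at 1.31 ± 0.16 (SE, adjusted p = 0.000161). It ranged from 6.67 to 7.22 in non-breeding females (median 6.75) and from 7.85 to 8.74 in implanted females. XM_002193573 was lower by the most, at -1.32 ± 0.27 (SE, adjusted p = 0.00308). It ranged from 3.03 to 4.83 in non-breeding females (median 4.26) and from 2.46 to 3.24 in implanted females (median 2.74). The first percentile of the implanted female arrays was 2.63 to 2.77, so these levels lay near the bottom of the array scale. Of the 17 members called in implanted females in HVC and the 20 called in entopallium, 2 were called in the same direction in both (0.173% of all transcripts) and 2 in opposite directions (0.0499% of all). The trio around ENSCAFT00000038346 gave one of the latter, since that transcript was higher by 1.14 in HVC and lower by 0.65 in entopallium, its entopallium difference being -0.65 ± 0.10 (SE, adjusted p = 0.00055).

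In breeding canaries 4 members were called higher in entopallium of males (6.25%, against 2.29% of all transcripts) and 3 higher in that of females (4.69%, against 0.955%). Of the 4, 3 were female-biased in HVC without testosterone. The largest of the 4 was XM_002200020 at 1.34 ± 0.33 (SE, adjusted p = 0.00832), with 5.29 to 6.35 in males (median 6.04) and 3.56 to 5.82 in females (median 4.54). The largest of the 3 was XM_002198076, also female-biased, at -1.48 ± 0.40 (SE, adjusted p = 0.0141), with 3.53 to 5.83 in males (median 4.64) and 5.55 to 7.41 in females (median 5.95). The count of 7 was 4 without breeding female replicate 4 and 4 without the lowest 25% of transcripts.

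In cerebellum, which holds no song nucleus, 5 male-biased members were called higher in non-breeding males (7.81%, against 0.675% of all transcripts) and none higher in females (0.104% of all). The medians were 0.19 in the male-biased and -0.14 in the female-biased members, against 0.01 over all transcripts. Of the 5 called, ENSTGUT00000000430 had the largest difference, 0.79 ± 0.13 (SE, adjusted p = 0.0041), with 9.52 to 10.04 in males (median 9.67) and 8.50 to 9.21 in females (median 9.03), and no overlap. In HVC its difference without testosterone was 0.76. In breeding canaries no member was called higher in cerebellum of males (0.437% of all transcripts) and 1 was called higher in that of females (1.56%, against 0.111%). This was XR_054409, at -1.71 ± 0.35 (SE, adjusted p = 0.0209), with 2.34 to 3.61 in males (median 3.25) and 3.44 to 5.75 in females (median 4.92), and the count was 0 without breeding female replicate 5 or 6. The first percentile of the breeding male cerebellum arrays was 2.99 to 3.08, so the male levels lay near the bottom of the array scale.

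**Figure D5:**
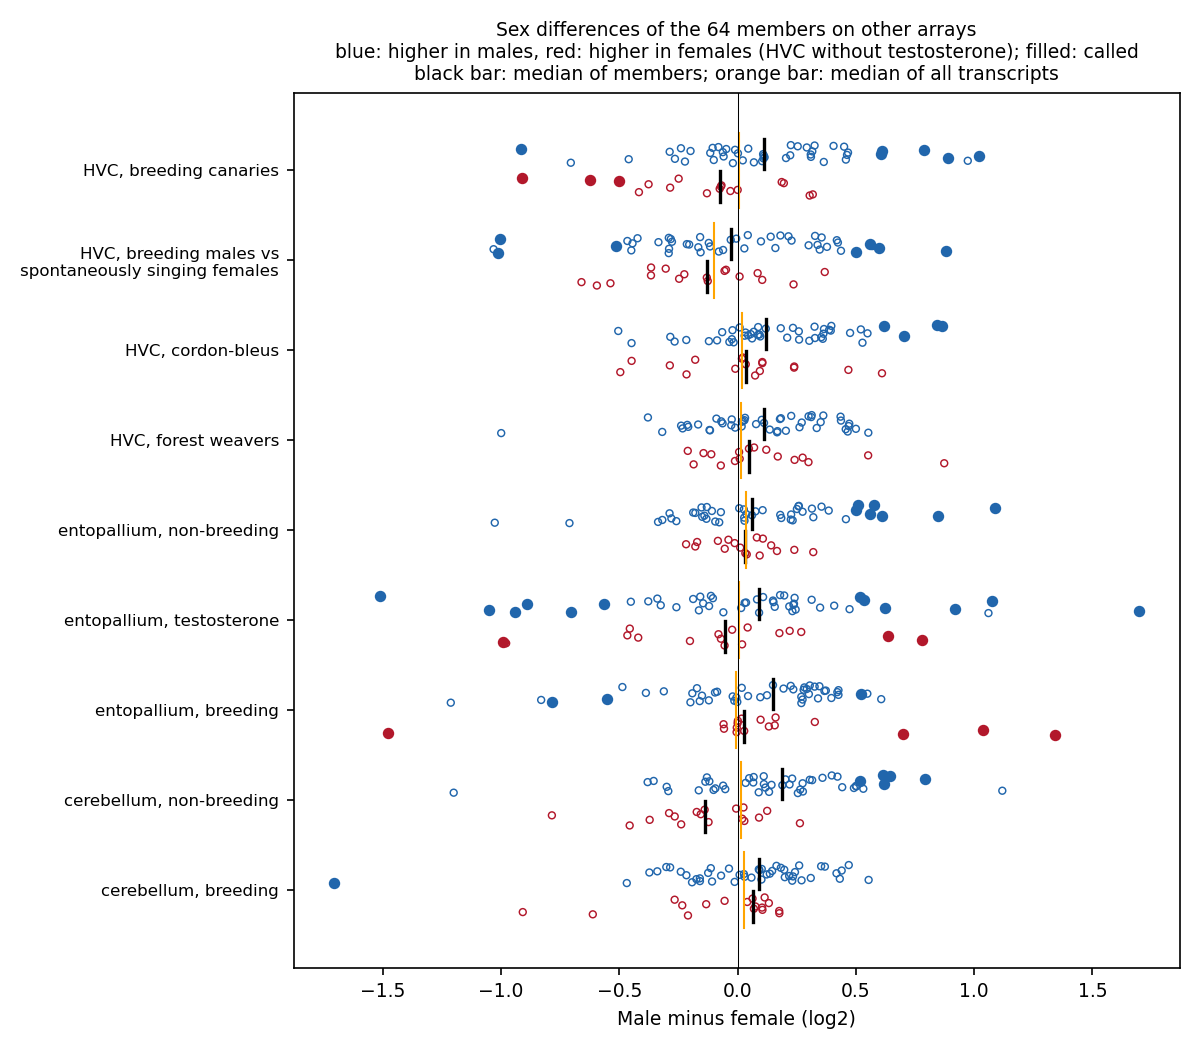
Male minus female difference (log2, x axis) of each of the 64 members in 9 comparisons on arrays the selection had not used (y axis), male-biased members in blue and female-biased in red, filled where called by limma. Black bars give the median of each set of members and orange bars the median of all transcripts. The medians lie between -0.14 and 0.19, and the called members lie on both sides of 0 in HVC of breeding canaries, in breeding males against spontaneously singing females and in entopallium of implanted and breeding canaries.

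Over the 8 comparisons of males and females of one state on other arrays, 24 members were called at least once in the direction seen in HVC without testosterone, 19 male-biased and 5 female-biased. Of the male-biased members 40.4% were called higher in males at least once, against 5.79% of all transcripts, and of the female-biased members 29.4% were called higher in females at least once, against 5.16%. In at least 2 comparisons 6 male-biased members were called higher in males (1.93% of all transcripts) and none of the female-biased was called higher in females (0.629%). In the opposite direction, 9 of 47 male-biased members (19.1%) were called higher in females and 4 of 17 female-biased members (23.5%) higher in males at least once. Of the 64 members 30 (46.9%) were called in none of the 8, against 89.3% of all transcripts. The 8 comparisons share no array. Of their birds, the entopallium birds of the implanted and non-implanted groups carry numbers of the selecting HVC birds, as given above, and the breeding females carry the same 6 numbers in HVC and entopallium. The cerebellum arrays carry no bird numbers, so whether they share birds with the selecting HVC arrays is not known. The 3 members called in 3 comparisons, named after their values were seen, were XM_002187138, ENSTGUT00000019256 and AK008736, all male-biased. AK008736 was higher in males by 0.58 in entopallium of non-breeding birds (adjusted p = 0.00554), by 0.61 in cerebellum of non-breeding birds (adjusted p = 0.00248) and by 0.84 in HVC of cordon-bleus (adjusted p = 0.000356), without overlap in any of the 3. In cordon-bleus it ranged from 6.63 to 7.11 in males (median 6.83) and from 5.71 to 6.37 in females (median 5.95). In implanted canaries its HVC level was 5.30 in male replicate 1 and 5.89 to 6.08 in the other males, against 5.74 to 5.96 in females, and without that male its difference with testosterone was 0.16, above the limit of 0.1.

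HVC and entopallium were also compared within each sex of breeding canaries, which showed how far the members belonged to HVC. In males 17 members were called higher in HVC (26.6%, against 6.40% of all transcripts) and 9 lower (14.1%, against 7.51%). In females, whose HVC and entopallium arrays came from birds of the same 6 numbers, 18 were called higher (28.1%, against 6.38%) and 8 lower (12.5%, against 6.40%). In both sexes 13 members were called higher in HVC (20.3%, against 4.91% of all transcripts) and 6 lower (9.38%, against 4.89%), and none was called in opposite directions. XM_002189086 had the largest difference in favour of HVC in both sexes. In breeding males it ranged from 8.61 to 9.70 in HVC (median 8.86) and from 5.22 to 5.93 in entopallium (median 5.47), an 11.8-fold difference of 3.56 ± 0.20 (SE, adjusted p = 7.66e-09). In breeding females it ranged from 7.73 to 8.52 (median 8.21) and from 5.32 to 5.81 (median 5.52), a 6.34-fold difference of 2.66 ± 0.12 (SE, adjusted p = 6.8e-10). Its sex difference in breeding birds was 0.89 ± 0.19 in HVC (SE, adjusted p = 0.00495), without overlap, and -0.01 in entopallium. In entopallium of implanted birds it was 0.35 (adjusted p = 0.012), which did not reach 0.5. The RefSeq mRNA NM_204918 was the lowest in HVC relative to entopallium, by -1.67 ± 0.08 in males (SE, adjusted p = 3.65e-09) and -1.47 ± 0.08 in females (SE, adjusted p = 5.43e-09). It ranged from 7.68 to 8.14 in HVC of breeding males and from 9.47 to 9.73 in their entopallium.

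The shared bird numbers allowed the level of a bird in HVC to be set beside its level in entopallium, over 28 birds of 5 groups and after the mean of each group was removed. The median correlation was 0.15 for the members and 0.13 for all transcripts, and 5 members (7.81%, against 4.60% of all transcripts) reached 0.5. The labels give numbers only, and arrays of the same number and group were taken as those of the same bird. For the implanted and non-implanted birds the HVC arrays are those of the selection. The highest value was that of ENSGALT00000024641, 0.81, a level that 0.150% of all transcripts reached or passed with 0.8. Of the breeding females, 2 birds had HVC levels of 5.51 and 5.51 and entopallium levels of 5.42 and 5.49, whereas the other 4 breeding females had HVC levels of 4.65 to 4.87 and entopallium levels of 4.64 to 4.86. Among implanted females, birds 1 and 4 had HVC levels of 5.91 and 5.63 and entopallium levels of 5.19 and 5.26, and birds 5, 6 and 8 lay at 4.73 to 4.82 in HVC and 4.50 to 4.72 in entopallium. The wide range of this transcript in females was thus that of the same few bird numbers in both regions.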

How the data were processed

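The deposited values were log2 transcript levels of 26061 transcripts on 155 arrays, which the authors had summarised from the probes and normalised between arrays; the labels name Affymetrix Expression Console, and no source used here gives its version or settings. Comparisons that the study made probe by probe in ChipInspector could not be repeated from transcript levels. Groups came from the sample descriptions; for the implanted birds these conflict with a treatment note of no treatment, and the descriptions were followed. More HVC arrays carry the label of non-breeding, non-singing females than the study lists, and all were used. The labels call the arrays biological replicates of separate birds.

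Differences of means were computed from the deposited log2 values. Each comparison was fitted with limma 3.58.1 in R 4.3.3 on all transcripts of the groups compared, with Benjamini-Hochberg adjustment over 26061 transcripts, and called at an adjusted p under 0.05 with a difference of at least 0.5. The fits, tested on simulated data, returned most of the differences added. Members and lists were chosen with earlier results of these data known. Because identifiers matched 0 of 17915 genes of the canary reference, gene and marker lists were not run. For the members as a whole, the 2 largest in each direction were named. For testosterone it was the member with the largest difference in each sex, and for other comparisons the largest called in each direction. Other members were named after their values were seen. Of the comparisons made, the one between HVC and entopallium of breeding females set arrays of the same bird numbers against each other. There the replicate block called 25 members in place of 26. The number of arrays limits the precision. Alternatives were total intensity scaling, quantile normalisation, removal of the lowest 25% of transcripts, limma with trend and robust settings, a replicate block and leaving out each bird.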

Additional observations from a re-analysis of the deposited data

Results flagged for a closer look

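Among 87 combinations of a named transcript and a group, 4 had 1 bird far from the other 5, and chance alone marks about 1 in 20 groups of this size. In implanted females XM_002187191 was 5.04 in replicate 4, below the next bird at 5.29. In breeding males XM_002187138 was 6.38 in replicate 3, below the next at 7.61. In entopallium of non-breeding males XM_002190061 was 6.85 in replicate 2, above the next at 6.06. In implanted males AK008736 was 5.30 in HVC of replicate 1, below the next at 5.89.

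The difference between implanted and non-implanted birds in entopallium was unlike in the sexes by the interaction term of limma in 5 named members. The interaction was -0.85 in ENSGALT00000024641 (adjusted p = 0.000541), 1.67 in XM_002194060 (adjusted p = 0.0411), -1.77 in AK160441 (adjusted p = 9.4e-06), 1.05 in XM_002190061 (adjusted p = 0.00655) and -0.60 in NM_204918 (adjusted p = 0.0217).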

How the results depend on the processing

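The number of members followed the limits, as their construction requires. It was 152 and 26 with limits of 0.4 and 0.6 without testosterone, 37 and 128 with limits of 0.05 and 0.2 with testosterone, and 41 without the lowest 25% of transcripts. Leaving out each bird gave 54 to 76, and 42 to 63 of the 64 were kept. Leaving out implanted male replicate 1 in the HVC fits with testosterone was chosen after seeing the data. The larger difference was that of the females in 33 to 40 members when 1 bird was left out.

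Counts of called members moved by more than 1.5 times in these cases. For breeding males against spontaneously singing females, 3 were called with quantile normalisation and 4 without the lowest 25%. For entopallium of non-breeding birds, 4 were called with quantile normalisation, 4 without the lowest 25%, 1 with the replicate block, and 4 to 7 with 1 bird left out. Without the lowest 25%, entopallium of breeding birds gave 4, cerebellum of breeding birds 0 and the testosterone difference in entopallium of males 1. With 1 bird left out, entopallium of breeding birds gave 4 to 8 and cerebellum of breeding birds 0 to 1. Of 494 medians of members under alternatives, 491 moved by less than the spread between birds. The exceptions, all without the lowest 25%, were 0.29 for the male-biased members and testosterone in entopallium of females, and 0.54 and 0.65 for the female-biased members in HVC against entopallium of breeding males and females. By the rule used on the correlation of their deviations, the replicate numbers paired arrays in no comparison. The labels do pair them in HVC against entopallium of breeding females, where these correlations were 0.06 to 0.24. The standard errors given for that comparison are those of the unpaired fit. Beyond the count of 1 above, the block moved no count by over 1.5 times. Members at low levels had wide errors, which limits what is known of their bias under testosterone.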
